A study of Mus musculus with 3 samples.

Results

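The genes of the cytosolic ribosomal proteins were examined by RNA-seq of the polyadenylated RNA of mouse regulatory T cells. They were taken as the protein-coding genes of the GENCODE annotation of GRCm38 whose symbol is Rpsa, Rplp0, Rplp1 or Rplp2, or Rpl or Rps with a number and an optional suffix, without the S6 kinases and the mitochondrial Mrp genes. The rule used no measured value. It took 84 of the 22457 genes in the count tables, 52 of the large subunit and 32 of the small subunit, on 19 chromosomes. Rps4l and Rpl6l carry symbols of this form but are annotated as processed pseudogenes and were left out.

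The cells were primary regulatory T cells, the CD4 T cells that restrain other immune cells, from adult mice aged 4 months, and the labels trace them to blood-forming cells of the bone marrow. No source used here states the strain, genotype, treatment or number of animals. There was 1 group of 3 libraries, labelled technical replicates 1, 2 and 3 of biological replicate 1, here called libraries 1, 2 and 3. All tests therefore measure the spread between these libraries, and none compares conditions or animals.

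The cytosolic ribosome joins a large and a small subunit, each built of ribosomal RNA and a set of small basic proteins that are needed in nearly equal amounts. Nearly every protein is encoded by a single working gene, and the genome holds many processed pseudogenes, which are intronless copies of the mRNA inserted elsewhere. In growing cells ribosomal protein mRNAs are among the most abundant, and they start with a pyrimidine tract, the TOP motif, through which mTOR signalling controls their translation, also in activated T cells.

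Most members had coding sequence that is not theirs alone. Each coding sequence was divided into overlapping windows of 50 bases, and a window was called unique when no transcript of another annotated gene held it on either strand. The median member had 17.0% unique windows, against 100% for the 21299 protein-coding genes of the tables with windows. Of the 84 members 67 (79.8%) were under 50% unique and 21 (25%) had no unique window, against 11.2% and 3.08% of those genes. At least 20% of the windows were shared with at least 1 other gene for 73 members. These other genes numbered 449, of which 420 were processed pseudogenes, with a median of 4 per member and 43 for Rpl21, a large subunit gene named after its value was seen. Only 45 of the 449 were in the count tables, among them 25 processed pseudogenes, which held 56, 62 and 69 counts in all in libraries 1, 2 and 3.

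Stretches of 120 coding bases from 4 members show the range, from GENCODE transcripts on GRCm38, with bases covered by a unique window in capitals. The small subunit gene Rps6 (ENSMUSG00000028495.14, chromosome 4, 86854660 to 86857412, minus strand) had no unique base, the stalk gene Rplp0 (ENSMUSG00000067274.10, chromosome 5, 115559467 to 115563727, plus strand) had 646 of 951, the large subunit gene Rpl8 (ENSMUSG00000003970.9, chromosome 15, 76904078 to 76906314, plus strand) had 757 of 771, and the paralogue Rpl3l (chromosome 17, 24727820 to 24736143, plus strand) was unique throughout. The stretches start at the start codon, except that of Rplp0, which covers coding bases 526 to 645 and crosses a border.
Rps6: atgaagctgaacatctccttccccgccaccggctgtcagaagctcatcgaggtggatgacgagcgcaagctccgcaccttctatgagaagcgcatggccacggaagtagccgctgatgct
Rplp0: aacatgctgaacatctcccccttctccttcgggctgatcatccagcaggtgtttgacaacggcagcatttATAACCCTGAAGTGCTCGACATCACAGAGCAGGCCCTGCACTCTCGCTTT
Rpl8: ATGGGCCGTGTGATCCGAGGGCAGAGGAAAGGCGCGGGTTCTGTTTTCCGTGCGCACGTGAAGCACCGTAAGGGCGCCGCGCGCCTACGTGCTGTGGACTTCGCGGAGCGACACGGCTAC
Rpl3l: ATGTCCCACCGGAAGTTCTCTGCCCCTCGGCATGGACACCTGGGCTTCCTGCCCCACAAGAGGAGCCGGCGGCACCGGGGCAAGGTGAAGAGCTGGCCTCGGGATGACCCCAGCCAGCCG
The Rps6 stretch was also found, base for base, in the processed pseudogene Rps6-ps4 (chromosome 2, 75191073 to 75191822, minus strand), which shared all 698 windows of the Rps6 coding sequence. No source used here states how reads that fit several genes were counted.

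The depth was modest and even. The total gene count was 3206781, 3228215 and 2872350 in libraries 1, 2 and 3, and 3 counts, the floor used for a count of 0, equalled 0.936, 0.929 and 1.04 CPM (counts per 1000000 of the library total). The 6 markers of regulatory T cells, Foxp3 among them, were present in every library and summed to 2112, 2003 and 2079 CPM. Markers of other cells differed more. The 5 B cell markers summed to 181, 246 and 338 CPM, the 4 plasma cell markers to 38.4, 449 and 112 CPM, the 6 neutrophil markers to 1.56, 74.3 and 7.31 CPM, the 6 erythroid markers to 8.11, 195 and 172 CPM and the 4 macrophage markers to 38.0, 26.3 and 54.0 CPM. No marker was at 0 in all libraries, but the 4 globin genes were at 0 in library 1, 3 neutrophil markers and 1 plasma cell marker were at 0 in libraries 1 and 3 each, and 1 neutrophil marker was at 0 in library 2. Fewer cells of a type and less RNA per cell cannot be told apart in bulk samples.

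The members' summed count was nearly the same in the 3 libraries, at 18523, 18834 and 18276 in libraries 1, 2 and 3. Their part of all counts was 0.578% (95% exact binomial interval 0.569 to 0.586), 0.583% (0.575 to 0.592) and 0.636% (0.627 to 0.646), and the intervals of libraries 1 and 2 overlap while that of library 3 lies above both. Intervals cover counting error only. Large subunit genes took 0.342 ± 0.0186% and small subunit genes 0.257 ± 0.0139% (mean ± SD over the 3 libraries, n = 3 for this and all later ± values). The 77 mitochondrial ribosomal protein genes, which encode the separate ribosome of mitochondria, took 0.576 ± 0.0475%. The counts were spread unevenly over the members. The 4 most counted held 33.9% of the members' counts, and the 42 least counted held 8.48%.

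Of the 84 members 81 reached 1 CPM in every library. Levels of different genes are given per coding length, as CPM per kilobase of coding exons (CPM per kb). The median member stood at 64.5 CPM per kb, with library medians of 63.9, 65.8 and 67.9. The median was 115 CPM per kb for the mitochondrial ribosomal protein genes and 14.3 for the 14536 protein-coding genes with a count. It was 57.4 CPM per kb in the large subunit and 89.2 in the small subunit.

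**Figure D1:**
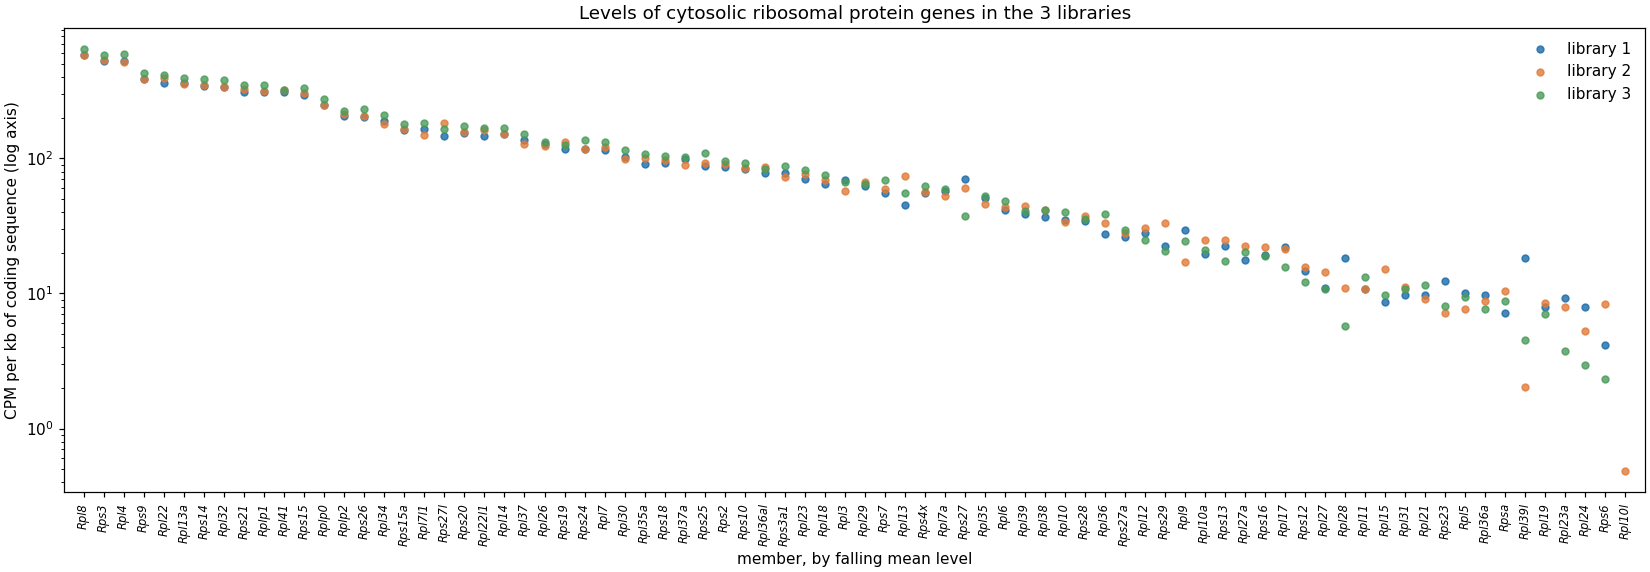
Levels of 78 members in CPM per kb of coding sequence (log axis), 1 point per library, with the members ordered by their mean. Rpl3l, at 0 in every library, is not drawn, and Rpl10l has a point for library 2 only because a log axis has no 0. The points of the 3 libraries lie close together from Rpl8 down to about 100 CPM per kb and spread out among the lowest members.

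Among the highest members per coding length were Rpl8, Rps3, Rpl4, Rps9, Rpl22 and Rpl13a, in falling order. Rpl8, next to the peptidyl transferase centre, had 1439, 1453 and 1434 counts in libraries 1, 2 and 3 and a level of 604 ± 37.3 CPM per kb. Rps3, which lines the mRNA entry channel, had 1391, 1426 and 1395 counts (549 ± 33.8 CPM per kb). For these genes the highest and the lowest library differed by 1.32% and 2.49% of the mean count, although the totals of libraries 2 and 3 are further apart. Rpl4, a protein of the exit tunnel, had the most counts of all members, 2130, 2105 and 2124 (545 ± 37.7 CPM per kb). Rps9, Rpl22 and Rpl13a stood at 403 ± 24.1, 391 ± 26.9 and 371 ± 20.5 CPM per kb, and in this order each lay within 1 SD of the next.

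Among the lowest members above 0 were Rpl10l, Rps6, Rpl24, Rpl23a, Rpl19, Rpl39l and Rpsa. Rps6, the protein phosphorylated by S6 kinases downstream of mTOR, had 10, 20 and 5 counts (4.93 ± 3.05 CPM per kb), and Rpl24, a large subunit protein, had 12, 8 and 4 (5.39 ± 2.50). Rpl23a, Rpl19 and Rpsa stood between 7.00 and 8.74 CPM per kb, and in order of level each lay within the larger SD of it and the next. Apart from the paralogues Rpl10l and Rpl39l, these members had no unique coding window or, in the case of Rpsa, 10 unique windows of 836. Over whole transcripts, which include untranslated regions, Rpsa was 66.7% unique. Rpl23a, Rps6, Rpl24 and Rpl19 were 14.3%, 15.4%, 18.3% and 26.1% unique. The Rps6 coding stretch printed above, all in lower case, and that of Rpl8, all in capitals, belong to members near the low and the high end of the levels.

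Across all 84 members the level per coding length followed the share of unique windows (Spearman's rho 0.66, a description across genes that share the same 3 libraries). Without the 7 paralogue copies rho was 0.85 over 77 members. The mitochondrial ribosomal protein genes offer no comparison, since their median was 100% unique and 6 of 77 were under 50%. The 21 members with no unique window had a median of 19.7 CPM per kb (4.93 to 82.5), the 46 members with some but under 50% had 78.2 (8.74 to 371), and the 17 members with 50% or more had 330. The number of genes sharing at least 20% of a member's windows ran the other way (rho -0.45). Over whole transcripts the 21 members with no unique coding window were from 14.3% (Rpl23a) to 80.3% (Rpl21) unique. With whole-transcript shares rho was 0.42 across the 84 members. Expression itself and the counting of shared reads cannot be told apart for these members, so the order of levels above is an order of deposited counts.

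**Figure D2:**
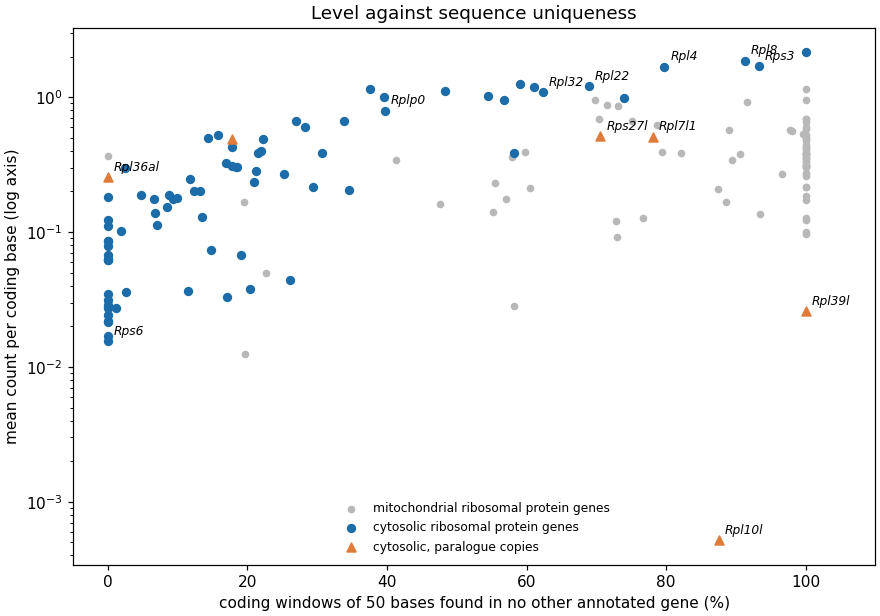
Mean count per coding base (log axis) against the share of coding windows of 50 bases found in no other annotated gene, with 1 point per gene. Cytosolic members (blue, 7 paralogue copies as orange triangles, Rpl3l at 0 not drawn) climb from the left edge, where Rps6 lies, towards the upper right, where Rpl8 and Rps3 lie, while Rpl10l and Rpl39l lie low at the right and mitochondrial ribosomal protein genes (grey) are mostly near 100%.

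Counts were also divided by the number of unique coding windows in place of length. Of 55 members with at least 20 unique windows and a mean count of at least 10, 30 (54.5%) had between 1.6 and 2.6 counts per unique window, 8 had more and 17 had fewer, with a median of 2.03. Values ran from 0.185 for Rpl27 to 4.41 for Rps7, both named after their values were seen. That range was chosen after the values were seen. Among 9935 other protein-coding genes with the same minimum the median was 0.120, and 2.01% lay in the range and 0.403% above it. The range was not particular to the members, since Rack1, described below, had 2.12. Over list genes with at least 20 unique windows the median was 1.28 for the other TOP mRNAs described below. It was 0.412 for mitochondrial ribosomal protein genes and 0.266 for the ribosome assembly genes described below. The 30 members in the range had mean counts from 46 to 2120 and unique shares from 6.79% to 100%. Within it, Rplp0 had 2.11 counts per unique window, Rpl4 2.20 and Rps9 2.24, and Rpl22 had 2.01. Rps27, with 21 unique windows, had 2.19.

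Unscaled counts of the well-counted members hardly moved between the libraries. In the 46 members with a mean count of at least 100, the variance over the 3 libraries divided by the mean had a median of 0.14. Poisson counting gives a mean of 1 for this ratio and, with 3 libraries, a lower median. The ratio was under 0.5 for 38 of the 46 (82.6%), against 7.76% of 6238 other genes with such counts, whose median was 4.27. In the 32 members with a mean count from 10 to under 100 the median ratio was 0.604, against 1.78 in 3966 other genes. Rpl32, a large subunit gene named after its values were seen, had 442, 441 and 442 counts. Rplp0 had 759, 759 and 751, and Rplp1 had 343, 346 and 344.

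The totals of libraries 3 and 1 differed by -0.16 on the log2 scale, and other genes followed them, with a median log2 ratio of unscaled counts of -0.16. The 46 members had a median log2 ratio of 0.00 (-0.21 to 0.17), and 45 of the 46 lay above the ratio of the totals. A median near 0 was not particular to the members. Over genes with a mean count of at least 10 it was -0.008 for the members and -0.014 for the ribosome assembly genes described below. For the other TOP mRNAs described below it was -0.037 and for mitochondrial ribosomal protein genes -0.048, against -0.17 for all protein-coding genes. At the same counts per unique window other protein-coding genes were less even. With 1.6 to 2.6 counts per window and a mean of at least 100, 26 members had a median variance to mean ratio of 0.12 and 193 other genes 1.83. Their median log2 ratios were 0.00 and -0.04, and 4278 other genes under 0.4 counts per window had -0.19. No source used here states the read length or what was done with duplicate reads, and their part in this pattern was not tested.

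**Figure D3:**
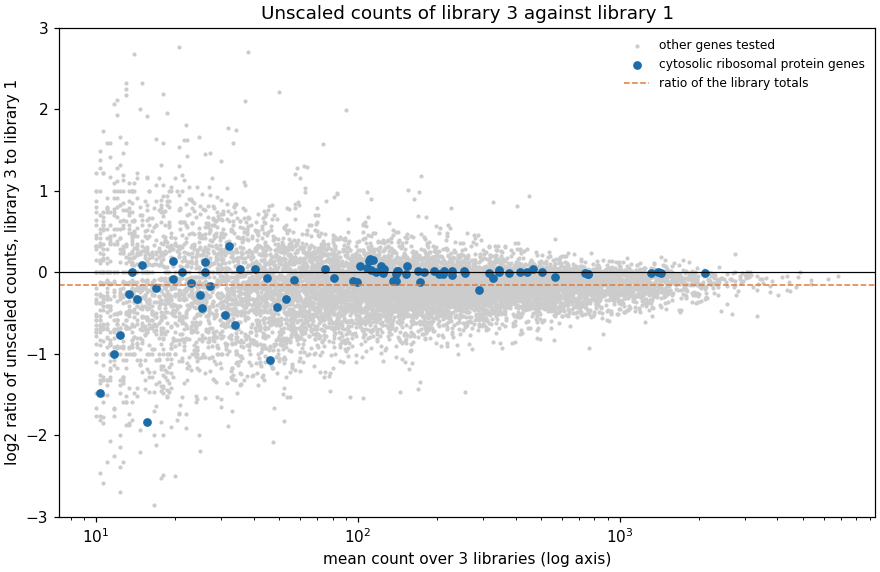
Log2 ratio of unscaled counts of library 3 to library 1 against the mean count (log axis), for members (blue) and all other genes with a mean count of at least 10 (grey), with 21 of the other genes beyond the axis. Members with a mean count of at least 100 lie along 0 (solid line), above the ratio of the library totals at -0.16 (dashed line).

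Few members differed between the libraries beyond counting error. Each gene's 3 counts were compared with Poisson expectation by Pearson's chi-square test, with library sizes from totals and TMM factors, and the Benjamini-Hochberg adjustment ran over all 10282 genes with a mean count of at least 10. Of 78 members tested 7 (8.97%) had an adjusted p under 0.05, against 27.6% of all genes tested. Rpl36a, Rpl39l, Rpl24, Rpl10l and Rpl3l were among those too low to be tested. Of the 7 members 5 were highest in library 3 (7.75% of all genes tested were called in that direction), 1 in library 2 (8.71%) and 1 in library 1 (11.1%). Of members with 50% or more unique windows 5 of 14 tested were called (35.7%, against 27.6% of all genes). With some but under 50% it was 1 of 46 (2.17%), and with none 1 of 18 (5.56%). Unscaled counts of the well-counted members spread less than Poisson, as given above. The part of this in the low share called was not tested. Without library 1 the number of members called was 6 of 77 tested (16.5% of all genes), without library 2 it was 4 of 76 (9.38%) and without library 3 it was 2 of 79 (19.5%). With a negative binomial spread at the common dispersion of edgeR none of the 78 was called (0.914% of all genes were), and 2 had an unadjusted p under 0.05.

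Among the 5 members highest in library 3 were Rpl4, Rpl8, Rps3 and Rpl7l1. Scaled to a common size, Rpl4 stood at 2081, 1991 and 2310 counts in libraries 1, 2 and 3 (adjusted p = 7.55e-05, chi-square test). The test takes the 3 libraries together and does not compare library 3 with each of the others. Rpl8 and Rps3 had ratios of the highest to the lowest library of 1.13 and 1.12 (adjusted p = 0.00899 and 0.0129, same test). Rpl7l1 had 389, 354 and 388 counts and a ratio of 1.26 (adjusted p = 0.0297). Each of these 4 had nearly the same unscaled count in libraries 1 and 3. With equal library sizes, a setting added after these counts were seen, their adjusted p-values were 0.944, 0.954, 0.826 and 0.458 in the order named, and 4 members (Rpl13, Rps27, Rpl28 and Rps6) were called, against 41.3% of all genes tested.

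Rpl13 and Rpl28, also called with TMM sizes, differed in the unscaled counts too. Rpl13, a large subunit gene with no unique window (chromosome 8, 123102350 to 123105244, plus strand), had 91, 151 and 101 counts, with library 2 1.61-fold above the lowest after scaling (adjusted p = 0.00779). Library 2 was also the one with the highest sums of plasma cell, neutrophil and erythroid markers, whose part in the result was not tested. Rpl28, a large subunit gene (chromosome 7, 4792874 to 4795066, plus strand), had 25, 15 and 7 counts, with library 1 3.21-fold above library 3 (adjusted p = 0.0427). Rps27 and Rps6 did not pass with TMM sizes (59, 51 and 28 counts, adjusted p = 0.0626, and adjusted p = 0.0587 for Rps6).

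The stalk of the large subunit, which recruits elongation factors, was among the better counted groups. It is built of Rplp0, at its base, and of Rplp1 and Rplp2, which bind to it. Rplp1 stood at 325 ± 21.4, Rplp0 at 257 ± 15.5 and Rplp2 at 214 ± 8.92 CPM per kb, in that order and more than 1 SD apart. Per unique window the order was another, with 2.97 counts for Rplp1, 2.29 for Rplp2 and 2.11 for Rplp0. Rplp2 had 227, 239 and 221 counts. All 3 were between 33.8% and 39.7% unique, and their adjusted p-values between libraries were 0.310, 0.0979 and 0.775 for Rplp1, Rplp0 and Rplp2.

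The partners of 5S ribosomal RNA were near the bottom. Rpl5 and Rpl11 carry that RNA into the large subunit, and outside the ribosome they bind Mdm2, the ligase that keeps p53 low. Rpl5 had 29, 22 and 24 counts (9.06 ± 1.28 CPM per kb) and Rpl11 had 19, 19 and 21 (11.6 ± 1.48). Rpl5 had no unique window and Rpl11 2.61%, and neither passed the test between libraries (adjusted p = 0.667 and 0.798).

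Within the functional centres levels differed by large factors between genes, and in each centre the gene with the highest unique share had the highest level. At the peptidyl transferase centre Rpl8 (91.3% unique) stood at 604, Rpl3 (12.3%) at 64.6 and Rpl10 (7.11%) at 36.4 CPM per kb. Along the exit tunnel Rpl4 (79.7%) stood at 545 CPM per kb and the 7 others, all under 50% unique, between 7.00 and 128. At the mRNA entry and decoding site Rps3 (93.3%) stood at 549, Rps15 (56.7%) at 310, Rps2 (21.2%) at 91.5 and Rps23 (0%) at 9.23 CPM per kb. Genes of these lists beyond the naming rule were named after their values were seen.

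Mutations in many members cause Diamond-Blackfan anaemia, a failure of red cell production. All 18 members of that list passed 1 CPM in each library, and their median was 52.9 CPM per kb. The highest was Rps26 at 214 ± 14.7 CPM per kb, and 17 of the 18 were under 50% unique. Rps19, the gene most often affected, had 320, 361 and 304 counts (125 ± 7.12 CPM per kb) and was the one of the 18 above 50% (58.2%). None of the 17 tested was called by the chi-square test, against 27.6% of all genes, and 1 had an unadjusted p under 0.05. None was called by the negative binomial model either, which called 0.914% of all genes, and 0 of the 17 had an unadjusted p under 0.05 by it.

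Of the 7 paralogue copies, 4 were well counted and 3 were at or near 0. Such copies encode a second version of a ribosomal protein, and some are known from muscle or testis. Rpl7l1, Rps27l, Rpl22l1 and Rpl36al stood at 165 ± 17.2, 165 ± 17.3, 159 ± 10.3 and 82.5 ± 3.69 CPM per kb. Rpl3l, a copy known from heart and skeletal muscle, had 0 counts in each library, which allows up to 1.04 CPM in library 3. Rpl10l, known from testis, had 0, 1 and 0 counts, and Rpl39l, also known from testis, had 9, 1 and 2. Rpl3l and Rpl39l were 100% unique and Rpl10l 87.5%. These low counts, unlike those of Rps6 or Rpl24, thus came with coding sequence that no other annotated gene shares.

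Which of a copy and its parent had the higher level depended on the scale for 3 pairs. Rps27l had 156, 194 and 158 counts against 59, 51 and 28 of Rps27 (55.9 ± 16.9 CPM per kb), and the libraries of the copy lay above all those of the parent. Rpl36al had 80, 88 and 76 counts against 10, 9 and 7 of Rpl36a on the X chromosome. Per coding length Rpl7l1 stood above Rpl7 (335, 356 and 343 counts, 124 ± 8.36 CPM per kb), whereas Rpl22l1 (205, 228 and 208 counts) stood below Rpl22 (446, 492 and 458 counts). Per unique window the order of these pairs was the opposite, with 0.721 counts for Rps27l and 2.19 for Rps27, 0.701 for Rpl7l1 and 1.32 for Rpl7, and 3.68 for Rpl22l1 and 2.01 for Rpl22. Rpl3, Rpl10 and Rpl39, at 64.6, 36.4 and 41.4 CPM per kb, stood above their copies. Parent and copy were identical at 62.6% of aligned coding bases for Rpl7 and Rpl7l1, 70.2% for Rpl22 and Rpl22l1, 74.4% for Rpl3 and Rpl3l, 75% for Rps27 and Rps27l, 84.7% for Rpl10 and Rpl10l, 85.0% for Rpl39 and Rpl39l and 87.7% for Rpl36a and Rpl36al.

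The first 120 coding bases of the closest pair and of the pair Rps27 and Rps27l are shown because both copies had more deposited counts than their parents. Capitals mark bases that differ between the members of a pair, 18 in the first and 28 in the second. The genes lie on chromosome X, 134585654 to 134588062, plus strand (Rpl36a), chromosome 12, 69182731 to 69184083, minus strand (Rpl36al), chromosome 3, 90212522 to 90213651, minus strand (Rps27) and chromosome 9, 66946086 to 66949516, plus strand (Rps27l).
Rpl36a: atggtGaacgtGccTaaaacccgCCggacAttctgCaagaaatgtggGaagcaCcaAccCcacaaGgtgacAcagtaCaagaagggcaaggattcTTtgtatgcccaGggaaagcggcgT
Rpl36al: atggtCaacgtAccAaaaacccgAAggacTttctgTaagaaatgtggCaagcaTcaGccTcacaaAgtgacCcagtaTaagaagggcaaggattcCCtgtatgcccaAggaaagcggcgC
Rps27: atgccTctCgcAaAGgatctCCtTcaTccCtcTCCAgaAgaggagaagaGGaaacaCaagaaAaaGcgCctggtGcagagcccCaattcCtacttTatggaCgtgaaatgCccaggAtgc
Rps27l: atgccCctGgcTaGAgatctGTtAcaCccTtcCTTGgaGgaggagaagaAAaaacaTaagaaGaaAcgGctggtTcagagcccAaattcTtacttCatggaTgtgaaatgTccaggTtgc
Differences lie along both pairs, but Rpl36a and Rpl36al had no unique coding window, and each shared at least 20% of its coding windows with 2 other annotated genes. In coding windows Rps27l was 70.6% unique and Rps27 9.38%. Over whole transcripts, untranslated regions included, Rpl36al was 77.9% unique and Rpl36a 14.5%, and Rps27l was 83.8% and Rps27 53.8%. The part of these shares in the counts was not tested.

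The starts of the members carried the sequences that mark TOP genes more often than other genes did. RefSeq promoter entries on GRCm38.p6 were matched by symbol for 64 of the 84 members. A C followed by at least 4 pyrimidines (C or T), read on the gene's strand and beginning within 5 bases of the annotated start, was found in 29 of the 64 (45.3%), in 25% of 68 mitochondrial ribosomal protein genes and in 21.2% of the 27025 genes of the table. The hexamer CTCTTT within 50 bases of the start was found on the gene's strand in 19 of the 64 (29.7%) and in 4.68% of all genes, and on the other strand in 1.56% and 4.46%. A hexamer at the start can lie in such a tract, so the counts overlap. The 30 bases around the start (15 on each side) are shown for 4 members with a tract, in capitals, and for the 3 paralogues at or near 0 counts, in which the search found none. Capitals begin at the matching C nearest the annotated start. Pyrimidines directly before it, present in all 4, are left in lower case.
Rps6, chromosome 4, 86857353 to 86857382, minus strand: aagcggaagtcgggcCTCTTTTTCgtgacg
Rplp2, chromosome 7, 141447636 to 141447665, plus strand: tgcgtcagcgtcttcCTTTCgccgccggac
Rpl28, chromosome 7, 4792950 to 4792979, plus strand: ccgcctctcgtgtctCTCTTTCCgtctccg
Rps10, chromosome 17, 27635230 to 27635259, minus strand: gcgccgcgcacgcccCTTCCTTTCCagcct
Rpl3l, chromosome 17, 24727811 to 24727840, plus strand: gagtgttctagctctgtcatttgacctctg
Rpl10l, chromosome 12, 66284387 to 66284416, minus strand: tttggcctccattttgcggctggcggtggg
Rpl39l, chromosome 16, 10170213 to 10170242, plus strand: ctcccaggcctttccggatttccggtggtc
The 29 members with a tract had a median of 86.9 CPM per kb and the 35 without 58.0, and both ranges were wide (4.93 to 403 and 0 to 549). For the hexamer the order was the other way, with a median of 49.9 CPM per kb in the 19 members with it and 76.6 in the 45 without. The median share of unique windows was 11.5% with the hexamer and 19.1% without it, and 17.8% both with and without the tract. The part of uniqueness in these levels was not tested. In deposited counts the tract did not mark a narrow range, since Rps6, with 9 bases in capitals, was among the lowest members. Rps6 had no unique coding window, so its count does not show whether its expression was low. These matches describe letters near an annotated start and say nothing of whether the tract was used. Among the 20 members without an entry were Rpl17, Rpl21, Rpl23a, Rpl29, Rpl3, Rpl30, Rpl32, Rpl36, Rpl7, Rpl8, Rplp1, Rps14, Rps20, Rps27a and Rps29.

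The genes that work with the members set the scale. Rack1, a signalling scaffold on the small subunit, had 1857, 1925 and 1883 counts (642 ± 42.2 CPM per kb, 98.6% unique) and was highest in library 3 after scaling (adjusted p = 0.00126, chi-square test). Its unscaled count was highest in library 2. Fau, which encodes a ribosomal protein fused to a ubiquitin-like protein, had 24, 29 and 23 counts and 12.1% unique windows. The 16 other TOP mRNAs of the list, which encode elongation factors and similar proteins, had a median of 169 CPM per kb, and 2 (12.5%) were called by chi-square, against 27.6% of all genes. Of 29 ribosome assembly genes, with a median of 80.3 CPM per kb, 14 of 28 tested (50%) were called by chi-square, against 27.6% of all genes, 12 of them highest in library 3 (7.75% of all genes) and 2 in library 1. Those directions hold after scaling, and the median log2 ratio of unscaled counts, library 3 to library 1, was -0.014 in this list. Of 76 mitochondrial ribosomal protein genes tested 18 (23.7%) were called, near the 27.6% of all genes, and 15 of them were highest in library 2 (8.71% of all genes were called in that direction). Under the negative binomial model none of the genes tested in these 3 lists was called, against 0.914% of all genes, and 1 other TOP mRNA, 1 assembly gene and 0 mitochondrial ones had an unadjusted p under 0.05.

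**Figure D4:**
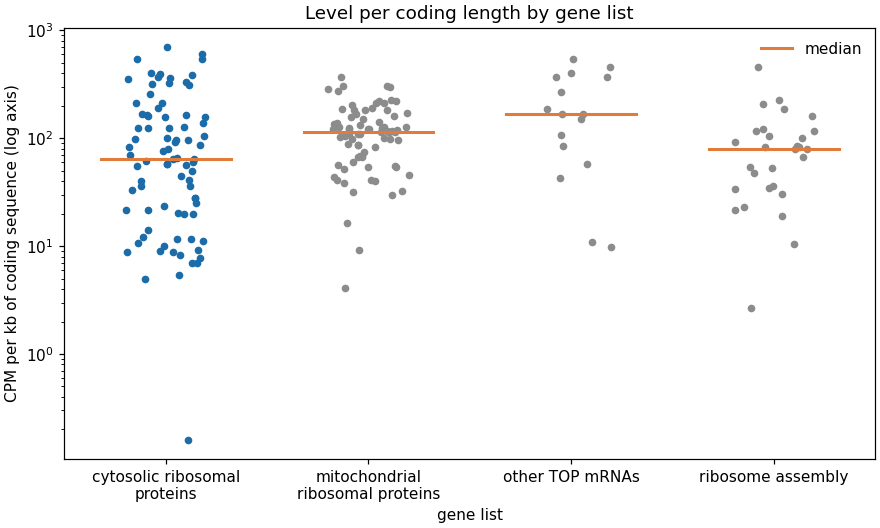
Level in CPM per kb of coding sequence (log axis) for the genes of 4 lists, 1 point per gene as the mean of the 3 libraries, with genes at 0 not drawn and the list median, over all its genes, as an orange line. Cytosolic members span the widest range around their median of 64.5, against 115, 169 and 80.3 for mitochondrial ribosomal proteins, other TOP mRNAs and ribosome assembly genes.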

How the data were processed

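PolyA plus RNA of 1 group was measured in 3 libraries. The authors deposited whole-number counts per gene for GENCODE M4 on mm10, per the file descriptions that accompany them. RNA was sheared before library construction, per the labels. No source used here states the aligner, the strand setting, the read length or the treatment of duplicate and multiply matching reads, so counts of overlapping genes and near-identical copies are uncertain.

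Names, positions and coding lengths (union of coding exons) came from GENCODE M21 (22195 identifiers matched, 262 with 0.117% of counts did not). Members and lists were chosen with earlier results of these data known. Named genes were members under 1 CPM, the 8 highest and 8 lowest per coding length, the stalk, 5S and paralogue lists with parents, up to 8 called members, Fau and Rack1. Some genes that the rule takes are not reported here. Any other gene was named with its values in view.

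Library sizes were totals times TMM factors of 0.990, 1.02 and 0.993 (edgeR 4.0.16, R 4.3.3). The chi-square test had 2 degrees of freedom. It was tested on simulated Poisson counts, which had no limit on the spread below Poisson. The design foresaw a genome for sequence uniqueness. None was used here, and windows were searched in annotated transcripts instead, an addition made after the data were seen. Paralogues were aligned with Biopython 1.88. Alternatives were plain totals, size factors of DESeq2 1.42.0, equal sizes, other filters, a negative binomial model, other lengths and windows, and leaving out each library. Scripts ran under Python 3.11.15 with scipy 1.17.1, numpy 2.4.6 and pandas 2.3.3, and figures were drawn with matplotlib 3.10.9.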

Additional observations from a re-analysis of the deposited data

How the results depend on the processing

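The number of members called different between libraries was 7. It was 7 with DESeq2 size factors and with plain totals and 6 with either other count filter, 4 with equal library sizes and 0 with the negative binomial model, and it ranged from 2 to 6 with a library left out. The share of all genes called moved as well, from 27.6% to 41.3% with equal sizes, 0.914% with the negative binomial model and between 9.38% and 19.5% with a library left out. The negative binomial model allows more spread by construction, and for the other changes the cause was not tested. The summed share of counts, 0.599%, was 0.572% without the paralogues and 1.43% when counts were first divided by coding length. The median level, 64.5 CPM per kb, was 15.2 per kb of exon length, which includes untranslated regions and those of minor transcripts. The number of members detected was 81, 69 at 5 CPM and 75 at 10 counts in every library. The rank correlation of level and uniqueness, 0.66, was 0.64 with windows of 36 bases, 0.64 with 100 bases, 0.42 over whole transcripts, 0.60 with exon length, 0.83 for members counted at 10 or more on average and 0.85 without the paralogues. Every other alternative run kept the direction and moved the value by less than its spread over the libraries, or a number of members by less than 1.5 times. No paired analysis was possible because the labels give 1 group. At this depth a member at 0 may still hold up to 3 counts' worth of expression.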
